A study of Homo sapiens with 4 samples.

Results

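The genes CENPB and CDC25B lie head to head on chromosome 20, and a single open chromatin region covers the starts of both. The region was followed in the ATAC-seq peak lists of 4 libraries, together with every peak centred in a window of 80 kb around both genes (GRCh38). The window held 7 peaks in shControl cells with DMSO and 9 with rapamycin, and 8 in shARID1A cells with DMSO and 6 with rapamycin. After peaks that overlapped between lists were merged, these were 9 regions of 69838 in the whole series, and the nearest gene was CENPB in 1 of them and CDC25B in another. The region was chosen by an earlier reading of the same lists, for a peak listed in both shControl libraries and in neither shARID1A library, so that its presence and ranks are given as a description.

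ATAC-seq maps open chromatin through the insertion of adapters by a transposase. All libraries came from Huh7, an established human liver cancer line, with nuclei of 50000 cells each. The cells carried a control hairpin (shControl) or a hairpin against ARID1A (shARID1A), a DNA-binding subunit of the BAF chromatin remodeller, and cells of each kind were kept for 6 h in DMSO or in 100 nM rapamycin, which inhibits the growth-controlling kinase complex mTORC1. Each of the 4 groups was 1 library. There is thus no replicate spread to judge a difference by, no test between conditions was made, and every value below describes these 4 libraries. The vector, the number of clones and the extent of the knockdown are not known from the labels. Values given as a series of 4 follow the order control DMSO, control rapamycin, knockdown DMSO and knockdown rapamycin, where control is shControl and knockdown is shARID1A.

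CENPB encodes centromere protein B, which binds a short motif in the alpha satellite DNA of centromeres and takes part in organising centromeric chromatin. CDC25B encodes a phosphatase that removes inhibitory phosphates from cyclin-dependent kinases and helps to start mitosis. Promoters shared by genes transcribed in opposite directions are common in the human genome, and are often rich in CpG.

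CENPB (RefSeq gene 1059) occupies 3783851 to 3786740 of chromosome 20 and is read from the minus strand. CDC25B (RefSeq gene 994) occupies 3786951 to 3806115 and is read from the plus strand. RefSeq places the CENPB start at 3786740 and the first of 4 CDC25B starts at 3786951, which leaves 210 bases between them. The other CDC25B starts lie inside the gene at 3795789, 3796310 and 3800048. The sequence between the head-to-head starts is printed because the peak that differed between the lists covers it, and the 210 bases before the second CDC25B start because a peak at that place was in all lists. A stretch of 30 bases that ends 17 bases before the third start is added for its motifs. All are from RefSeq (GRCh38.p14), plus strand, 5′ to 3′, at chr20:3786741-3786950, chr20:3795579-3795788 and chr20:3796264-3796293. Capitals mark matches, on either strand, to the motifs searched.
Before CDC25B start 1: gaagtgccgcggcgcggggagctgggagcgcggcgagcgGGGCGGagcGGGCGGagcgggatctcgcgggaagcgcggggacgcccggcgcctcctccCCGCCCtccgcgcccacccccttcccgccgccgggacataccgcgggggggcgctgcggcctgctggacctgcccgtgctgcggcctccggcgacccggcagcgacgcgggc
Before CDC25B start 2: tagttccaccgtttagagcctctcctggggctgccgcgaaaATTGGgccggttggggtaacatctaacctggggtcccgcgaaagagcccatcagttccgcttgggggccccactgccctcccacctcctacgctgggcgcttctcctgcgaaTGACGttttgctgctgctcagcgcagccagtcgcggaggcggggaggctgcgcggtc
Before CDC25B start 3: tgttatttTTCGAAtaTATAAggaggtgga

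The sequence between the head-to-head starts was 82.9% G and C and held 37 CpG dinucleotides. The GC box GGGCGG, the binding motif of SP-family factors, was found 3 times there, against 0 times before the second start and 2 times in the 210 bases before the third start. Of 35116 RefSeq promoters, 40.7% held this motif in the 210 bases before the start, and 12.2% held it at least 3 times. No match was found between the head-to-head starts to the CCAAT box (CCAAT, present in 28.8% of promoters), the TATA box (TATAA, 16.1%), the cell-cycle element CHR (TTTGAA, 10.9%, or TTCGAA, 0.954%), E2F (TTTGGCGC, 0.473%, or TTTCCCGC, 1.16%), ETS (CCGGAA, 13.3%), NRF1 (by its palindromic consensus, 0.985%), the E-box (CACGTG, 5.67%) or the CRE half-site (TGACG, 19.0%). Before the second start, CCAAT and TGACG matched 1 time each. Before the third start, the CCAAT box, the TATA box and the second form of the CHR matched 1 time each. The CCAAT and TATA boxes were thus found at internal starts of CDC25B and not between the head-to-head starts. A match describes the letters and does not show that a factor binds. Only exact letters were searched, so the lack of a match does not show that a factor cannot bind. The sequence between the head-to-head starts holds TTCCCGC, the second E2F form without its first letter, on both strands.

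The peak over the head-to-head starts was listed in both shControl libraries and in neither shARID1A library. In shControl DMSO it ran from 3786733 to 3787315 (582 bp), from 7 bp on the CENPB side of the CENPB start to 364 bp inside CDC25B. In shControl rapamycin it ran from 3786727 to 3787166 (439 bp) and ended 215 bp inside CDC25B. The peaks shared 433 bp, which is 74.4% of the DMSO peak and 98.6% of the rapamycin peak. Both therefore contained the whole sequence printed above for the first start. The authors annotated this peak as the CENPB promoter, at -334 bp and -256 bp from a CENPB start that these distances place at 3786690, outside the peak by 43 bp in DMSO and 37 bp in rapamycin.

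**Figure D1:**
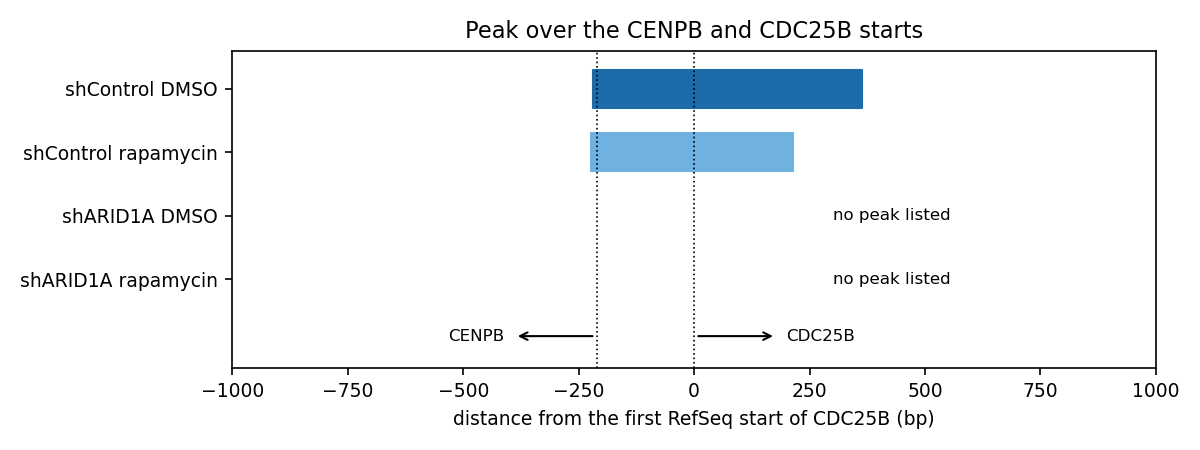
Peaks within 1 kb of the first RefSeq start of CDC25B in each of the 4 lists; the horizontal axis is the distance from that start in bp, bars span a listed peak, and arrows show the direction of transcription from both starts (dotted lines). Both shControl peaks cover both starts, and neither shARID1A list has a peak there.

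Strength was read as the rank of a peak in its own list by the authors' deposited score, whose scale is unknown, with rank 1 the strongest. The peak ranked 8693 of 52192 in shControl DMSO and 4093 of 49783 in shControl rapamycin, which is 16.7% and 8.22% of the list, counted from the strongest. For comparison, the median promoter peak (centred within 1 kb of a start by the authors' distance) stood at 19.2% and 18.8%. So the peak was stronger than the typical promoter peak of its own list in both shControl libraries. A rank in lists of different length does not measure a change between them.

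The shARID1A lists were empty around the starts over a stretch of several kilobases. In shARID1A DMSO the nearest peaks ended 4946 bp before and began 8381 bp after the shControl DMSO peak, leaving 13909 bp without a peak. In shARID1A rapamycin these distances were 4851 bp and 8388 bp, with 13821 bp without a peak. Peak numbers follow genome order in the lists. The shARID1A DMSO list skips 6666 numbers (12.7%) as a whole, but the peaks on both sides of this gap were numbered 28622 and 28623. In shARID1A rapamycin, which skips none, they were 24699 and 24700. No skipped number therefore lay in the gap in either list. Absence from a list shows that no peak passed the authors' calling, not that the chromatin was closed, and the read depth behind the lists is unknown.

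The same gene kept a second open region in every library. The CDC25B internal peak contained the second and the third RefSeq start in all 4 lists. In shControl it ran from 3795704 to 3796853 with DMSO and from 3795692 to 3796958 with rapamycin. In shARID1A it ran from 3795696 to 3796881 with DMSO and from 3795703 to 3797031 with rapamycin. It ranked at 4.68%, 3.45%, 4.22% and 2.52% of the lists. It was thus among the strongest 5% in each, and stronger than the head-to-head peak in both shControl lists. No peak in the window covered the fourth start. CDC25B had 3 of its 4 RefSeq starts under a peak in the shControl libraries and 2 of 4 in the shARID1A libraries, while CENPB had its single RefSeq start under a peak in the shControl libraries and under none in the shARID1A libraries.

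The authors' distances for the internal CDC25B peak were -153 bp, 490 bp, 9516 bp and 9595 bp, although the 4 peak centres lay within 89 bp. The last pair of distances refers to a CDC25B start at 3786772, in the head-to-head region. A promoter count that takes each list's own distance would thus count CDC25B as without a promoter peak in both shARID1A lists, while the peak itself was there. For this reason genes were matched to regions merged over all lists in the counts below.

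**Figure D2:**
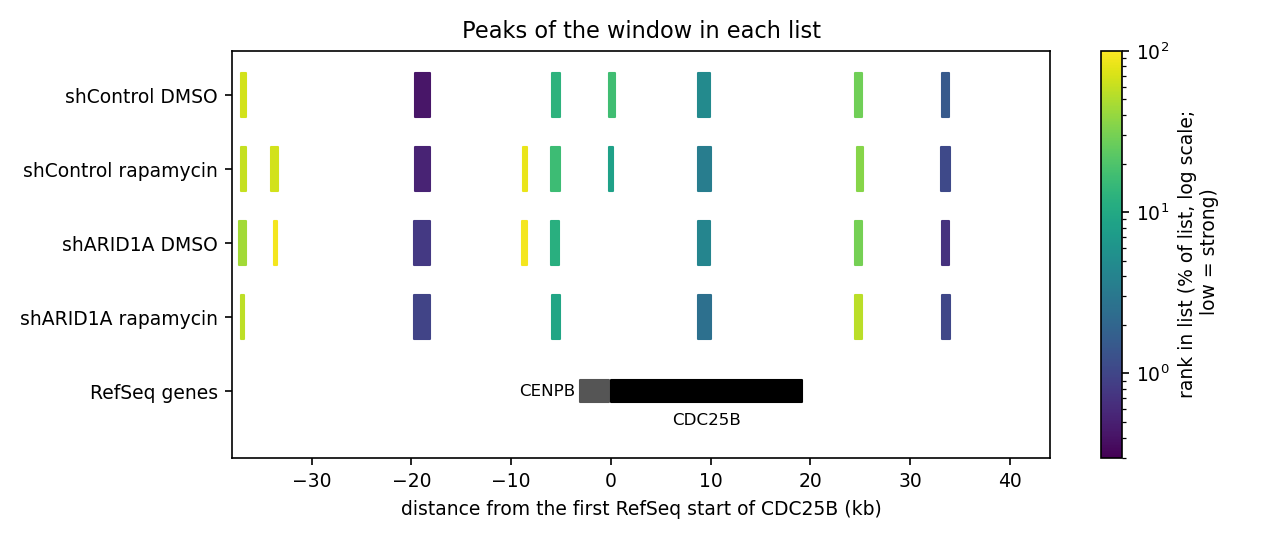
Peaks of the 80 kb window by list; the horizontal axis is the distance from the first RefSeq start of CDC25B in kb, colour gives the rank as a percent of the list (log scale, low is strong), and the lowest row shows CENPB and CDC25B. The peak at 0 kb is missing in the shARID1A rows, and 6 regions recur in all rows.

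Of the 9 regions of the window, 6 were present in all 4 lists, the internal CDC25B peak among them. The share of all 69838 regions present in all 4 lists is not given. The count therefore does not show whether the window is unusual. The C20orf27 promoter was the strongest region of the window in both shControl lists and in shARID1A rapamycin, at 0.416%, 0.520% and 0.958%, and stood at 0.779% in shARID1A DMSO. The promoter of AP5S1, a subunit of an endosomal adaptor complex, stood at 1.52%, 1.08%, 0.681% and 1.04%. SPEF1, encoding a microtubule-binding protein of flagella and cilia, is the neighbour on the CENPB side. Its promoter peak stood at 12.7%, 16.1%, 11.6% and 9.18%. That is close to the rank of the head-to-head peak in shControl DMSO, and the SPEF1 peak was listed in every library.

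Weaker regions made up the rest of the window. A region in intron 1 of AL109804.1 stood at 28.7%, 34.5%, 29.8% and 54.4%, and one in exon 11 of HSPA12B, a member of the HSP70 family, at 67.4%, 60.1%, 44.6% and 56.2%. Another pair of regions was listed in shControl rapamycin and shARID1A DMSO only. One lay at the end of HSPA12B (66.9% and 89.3%), with C20orf27 as the nearest gene, and one in SPEF1, annotated as intron 6 or exon 7 (82.2% and 90.5%). Over the whole lists, 18.5% of shControl rapamycin peaks had no counterpart with DMSO, 21.2% of shARID1A DMSO peaks had none with rapamycin, and 17.7% of shARID1A DMSO peaks had none in shControl DMSO. The head-to-head region was thus the single region of the 9 listed in shControl libraries alone. The nearest peaks outside the window were at MAVS on the right, from 16194 to 16317 bp beyond its edge, at between 1.61% and 4.22% of the lists. On the left they were weak peaks in HSPA12B (3 lists, 86.7% to 93.4%) or near SIGLEC1 (shARID1A DMSO, 78.9%).

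**Figure D3:**
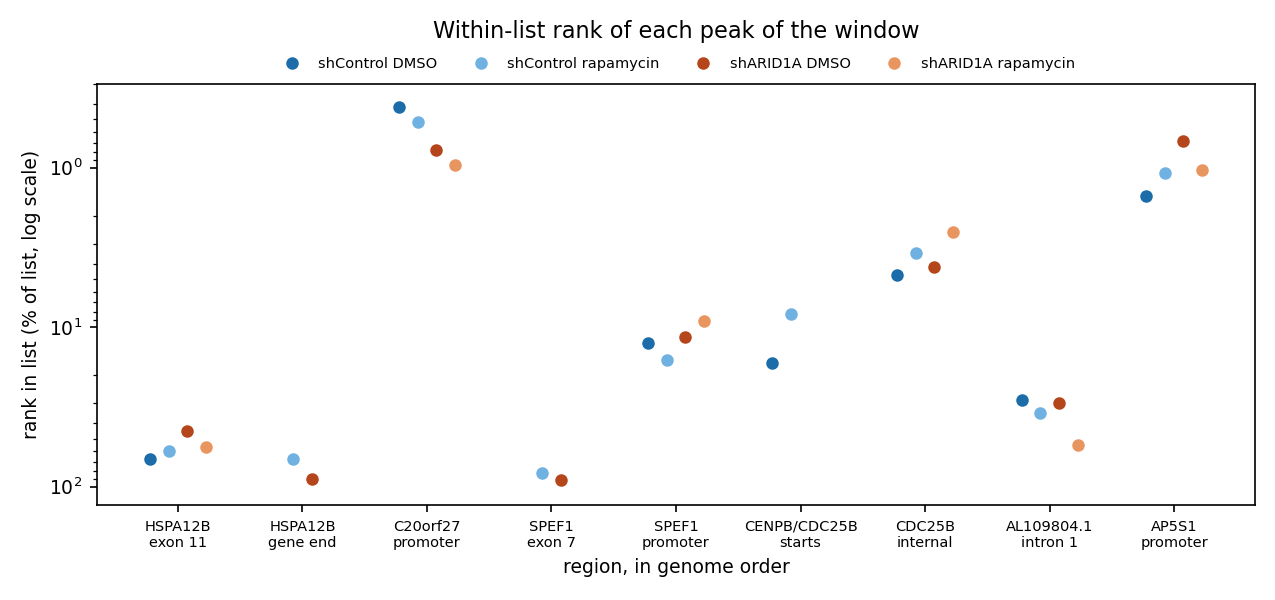
Rank of each peak of the window as a percent of its list (vertical log axis, strong at the top) for the 9 regions in genome order, 1 point per library. The head-to-head region has points for shControl only (16.7% and 8.22%), while the C20orf27, SPEF1, CDC25B internal and AP5S1 peaks have 4 points each.

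The following counts place the region among like regions and are no test, since its pattern is what it was chosen for. In DMSO, 5.82% of shControl promoter peaks had no overlapping peak in shARID1A (760 of 13050), and 27.6% of all shControl peaks. In rapamycin the values were 6.41% of promoter peaks (829 of 12933) and 26.7% of all peaks. Whether the head-to-head peak was listed did not differ between DMSO and rapamycin in either genotype. Between these treatments, 5.81% of DMSO promoter peaks were missing from the rapamycin list in shControl and 6.5% in shARID1A. Both shControl lists and neither shARID1A list held 3745 peaks of shControl DMSO (7.18%), of which 164 were promoter peaks (1.26% of promoter peaks). The converse pattern held for 1301 shARID1A DMSO peaks (2.85%) and 135 promoter peaks (1.03%). These counts rest on the peaks listed, and the shControl rapamycin list skips 1093 numbers (2.15%) beside the 6666 skipped in shARID1A DMSO. The part of the skipped numbers in the counts was not tested.

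Within these sets the head-to-head region stood first by the mean of its percent ranks in both shControl lists, 12.4%. The median was 80.3% for the 164 promoter peaks and 74.4% for all 3745. Among promoter peaks, the next were those of C1orf229 at 29.9%, the pseudogene KRT8P42 at 38.4%, AC242842.1 at 39.5%, SPATA12 at 42.4% and LPP-AS1 at 45.1%. UGT2A3P7 at 46.6%, LINC00332 at 49.6%, VTCN1, encoding an inhibitory ligand of T cells, at 50.7% and AC003985.2 at 51.5% completed the first 10. Among all 3745, the second was a region in intron 2 of C3orf52 at 22.1%. Strong promoter peaks seldom lacked a counterpart. In the score decile of the head-to-head peak (10 to 20% of the list), 2 of 2749 shControl DMSO promoter peaks had none in shARID1A DMSO (0.0728%). They were this one and that of ZNF286A. For 1 of 2749 (0.0364%), a counterpart was listed in shControl rapamycin and none in either shARID1A list. In the strongest decile of shControl rapamycin, 1 of 3899 promoter peaks had none in shARID1A rapamycin (0.0256%), the head-to-head peak itself.

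**Figure D4:**
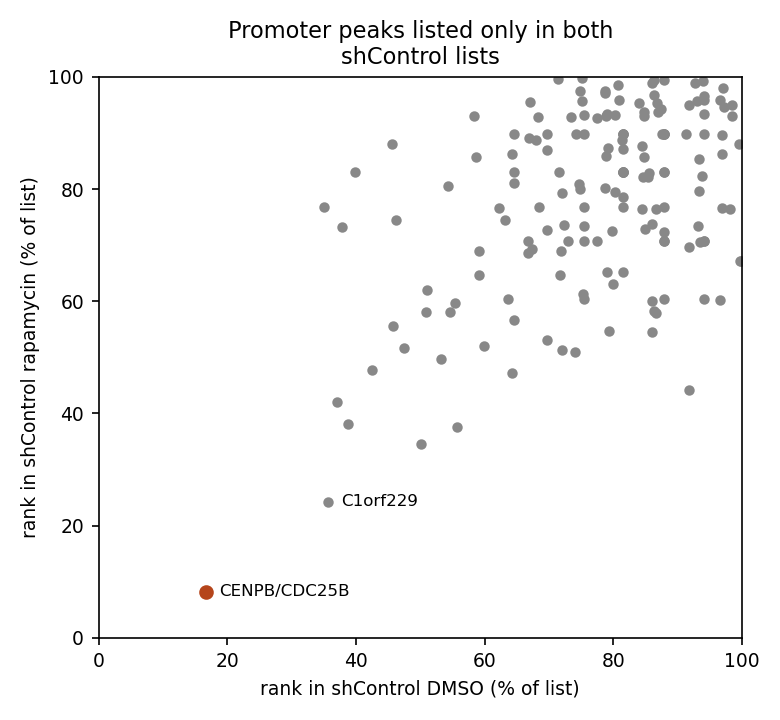
Ranks of the 164 promoter peaks listed in both shControl lists and in neither shARID1A list, as a percent of shControl DMSO (horizontal) and of shControl rapamycin (vertical), 1 point per peak, with strong peaks at the lower left. The CENPB/CDC25B point, at 16.7% and 8.22%, lies apart from the next, C1orf229.

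The region was next set among other head-to-head starts, again as a description, since the counts sort pairs by the pattern the region was chosen for. RefSeq held 3104 pairs of starts of different genes transcribed away from each other within 1 kb, with a median of 170 bases between them, against 210 for CENPB and CDC25B. A peak touched the interval between the starts in 2505, 2524, 2541 and 2502 pairs, and in all lists for 2447 pairs. Of pairs with a peak in shControl DMSO, 0.918% had none in shARID1A DMSO (23), and in rapamycin it was 2.02% (51). The pattern of both shControl lists and no shARID1A list held for 8 of 2474 pairs (0.323%), and the converse for 4. In the other 7 the peak stood at 37.8% or weaker in shControl DMSO, against 16.7% for CENPB and CDC25B, and those pairs included C10orf71 with its antisense gene, POU2F2 with LNROP, and the starts at KCNJ16 and at GUCY1B1. Of the 4 converse pairs, MPDU1 with its antisense gene had the strongest peak, at 8.26% of shARID1A DMSO and 8.48% of shARID1A rapamycin. In these counts a peak had to touch the interval between the starts, which is 74 bases at MPDU1. Whether a shControl peak lay just beside that interval was not looked at. The MPDU1 pair therefore cannot be set equal to CENPB and CDC25B. The share of the converse among pairs with a peak in both shARID1A lists is not given.

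Base composition differed between the head-to-head region and the internal CDC25B starts. In RefSeq promoter windows (250 bases before to 50 after a start), G and C made up 82.0% at CENPB and 81.3% at the first CDC25B start, which are largely the same bases read from opposite strands. A higher share was found in 1.09% and 1.44% of the 35116 windows. CpG dinucleotides numbered 55 and 53, exceeded in 0.276% and 0.464% of windows, where the median window had 14. At CDC25B starts 2 and 3, G and C made up 66.0% and 64.3%, with 26 and 24 CpG. The fourth start, which had no peak in any list, had 59.0% and 4 CpG.

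In the bin of windows richest in G and C (75.0% and above, 3377 windows), a peak was present in 71.5%, 75.9%, 77.5% and 72.9%. The lowest share was thus that of shControl DMSO and the highest that of shARID1A DMSO. Of 2368 windows in it with a peak in both shControl lists, 7 had none in either shARID1A list (0.296%), against 0.73% over windows of any composition. Besides CENPB and CDC25B these were SHC2 (22.9% of the list in shControl DMSO), ATP6V1C2, TICAM2-AS1, MTA1 and GRAMD2A (73.0% to 84.6%). A window counts here as without a peak where no peak touches it, even if one lies just beside it. By overlap of peaks, as used above, no SHC2 peak was among the 164 promoter peaks with the pattern. The windows of CENPB and CDC25B overlap and hold the same peak, which is thus counted under both. The converse pattern was found in 23 windows of the bin, of 135 over windows of any composition. The shControl-only pattern was found in 112 windows of any composition. The part of base composition in the pattern at CENPB and CDC25B was not tested.

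**Figure D5:**
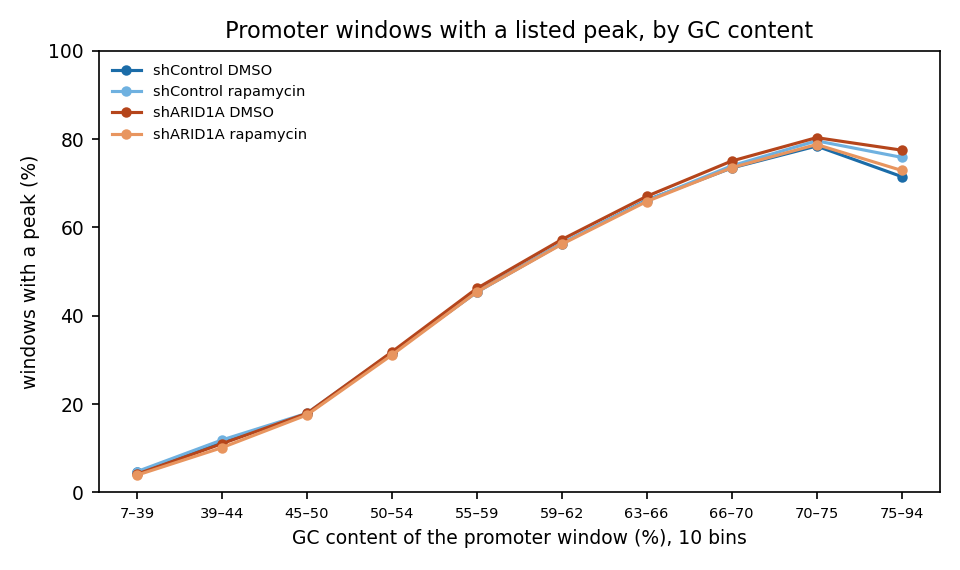
Share of RefSeq promoter windows with a listed peak (vertical, percent) in 10 bins of GC content (horizontal, percent), 1 line per library. The lists lie within 2 percentage points of each other up to the last bin, where they range from 71.5% in shControl DMSO to 77.5% in shARID1A DMSO; the CENPB and CDC25B windows fall in this bin.

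Of 34 centromere and kinetochore genes, 29 had a promoter region by the authors' annotation in any list. All but CENPB, 28 in number, had it in all 4 lists. Of all gene names with a promoter region, 84.7% did (14258 of 16832). Most genes of any kind thus did so, and the difference from that share was not tested. Among the 29, CENPB was the single one listed in both shControl libraries alone, a pattern found for 160 of 16832 gene names (0.951%). CENPA, the histone H3 variant that marks centromeres, stood at 8.95%, 8.46%, 7.79% and 10.5%. CENPC, which binds CENPA nucleosomes, stood at 3.09%, 2.53%, 3.84% and 4.68%. Of the 5 genes without an annotated region, CENPK, CENPO and CENPS had a peak over their RefSeq promoter window in all lists, CENPI had none in any, and CENPL had no window. The list's median rank was 5.93%, 7.69%, 5.95% and 6.13%.

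Of 20 regulators of cyclin-dependent kinases at the passage from G2 to mitosis, 20 had a promoter region in all 4 lists, CDC25B through its internal peak, against the same 84.7% of gene names. CDC25A, the family member that also acts at entry to S phase, stood at 0.360%, 1.38%, 1.68% and 2.83%. CDC25C, which acts on CDK1 at entry to mitosis, stood at 2.40%, 6.60%, 3.0% and 3.10%. CDK1 stood at 4.05%, 7.09%, 7.24% and 6.63%. The 3 CDC25 genes thus each had a promoter peak in the strongest 10% of every list. The upstream start region that CDC25B shares with CENPB was the one listed in some libraries alone. Whether transcript levels of either gene differed was not analysed here.

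For the cell line as a whole, 8 of 12 hepatocyte markers had a promoter region in all 4 lists, HNF4A and APOB among them. That is 8 of the 9 with such a region in any list, against 84.7% of gene names. TTR, encoding the carrier protein transthyretin, had one in shARID1A rapamycin alone (54.2%), and ALB and AFP had none in any. Of 11 markers of leukocytes, endothelium and fibroblasts, 1 (COL1A1) had a promoter region in all lists and CD3D had one in shControl DMSO alone. By RefSeq windows, SERPINA1 and ACTA2 had a peak in all lists as well. The lists held 52192, 49783, 45700 and 44760 peaks, while their highest peak numbers were 52192, 50876, 52366 and 44760. The shARID1A DMSO list is thus the shorter one under DMSO by peaks listed and the longer one by numbering.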

How the data were processed

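Per the submitters' processing notes, the authors used BWA and MACS2 2.0, with GRCh38 (hg38) as the genome. Their settings, how duplicates and the transposase offset were handled, and the depth of reads are unknown. Each deposited list belongs to 1 library, and its peak score, nearest gene and distance are the authors' own, per the file headers. The deposited score was used only to rank peaks within a list. Coordinates are as deposited.

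Ranks, overlaps (at least 1 bp), merged regions and motif matches were computed here in Python 3.11.15 (SciPy 1.17.1, NumPy 2.4.6, pandas 2.3.3), and figures drawn with matplotlib 3.10.9. The overlap step was tested on simulated intervals. A gene had a promoter region where a merged region held a peak within 1 kb of its start by the authors' distance in any list. Starts and sequences came from RefSeq (GRCh38.p14). Named were both genes, nearest genes of the window, centromere and G2 to mitosis genes missing from a list, CDC25A, CDC25C, CENPA and CENPC, and the 10 strongest promoter regions of the same pattern. CDK1, the marker genes and other examples were chosen after their values were seen. Members and lists were chosen with earlier results of these data known.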

Additional observations from a re-analysis of the deposited data

Results flagged for a closer look

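A pair of weak regions in the window went opposite ways with rapamycin in the 2 genotypes: each was listed with rapamycin but not DMSO in shControl, and with DMSO but not rapamycin in shARID1A. They were the region at the end of HSPA12B, at 66.9% of the list in shControl rapamycin and 89.3% in shARID1A DMSO, and that in SPEF1, at 82.2% and 90.5%. With 1 library per group, the difference was not tested. The shControl rapamycin and shARID1A DMSO lists were also the ones that skip peak numbers (1093 and 6666). Their median peak lengths were 733 and 758 bp, against 677 bp in shControl DMSO and 695 bp in shARID1A rapamycin. The part of these list differences in the pattern was not tested. The share of all regions with the same pattern is not given.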

How the results depend on the processing

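The head-to-head peak was present in both shControl lists and absent from both shARID1A lists under every alternative run: overlap of 50% of the shorter peak, any peak within 500 bp, and the 44760 strongest peaks of each list. These runs could not have come out otherwise. The shARID1A lists had 13909 and 13821 bp without a peak there, and the shControl peaks, at 16.7% and 8.22%, lay far above the cut. The unchanged result is therefore no support for the pattern. Peaks of shControl DMSO also in shControl rapamycin and in neither shARID1A list numbered 3745. They numbered 2426 with equal list lengths and 2075 when every list was cut to its stronger 50%. These are new counts in shortened lists, where a shARID1A peak below the cut no longer counts as a counterpart. They are therefore not parts of the 3745. The window held 7, 9, 8 and 6 peaks (shControl DMSO, shControl rapamycin, shARID1A DMSO, shARID1A rapamycin), of which 2, 2, 1 and 1 had CENPB or CDC25B as the nearest gene, and 15, 17, 19 and 17 when it was widened by 100 kb on each side. The shares of promoter peaks without a counterpart (knockdown in DMSO, knockdown in rapamycin, rapamycin in shControl, rapamycin in shARID1A) were 4.37%, 5.14%, 4.45% and 5.15% with promoters within 500 bp, and 6.35%, 7.03%, 6.50% and 7.06% with overlap of 50%. Counts for both gene lists did not change with 500 bp, 2 kb or equal list lengths. With RefSeq windows, an alternative chosen after seeing the data, they were 27, 27, 26 and 26 for centromere genes and 16 in each list for the G2 to mitosis genes, since fewer genes have a window. No paired analysis was possible because each group held 1 library. Depth is unknown, so whether weak signal remained at the starts in shARID1A cells cannot be told from these lists.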

Other observations

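Beyond the window, the 280 kb around both genes held 26 regions, 11 of them in all 4 lists, again without a share over the whole series to set beside it. The head-to-head region was the single one listed in both shControl libraries alone, and an intergenic region near SIGLEC1, encoding a macrophage adhesion receptor, was the single one listed in both shARID1A libraries alone, at 78.6% and 78.7% of the lists. The promoter of MAVS, an adaptor of antiviral signalling, stood at 1.61%, 1.64%, 2.41% and 4.22% of the lists (DMSO and rapamycin in shControl, then in shARID1A). A region annotated as the promoter of AL353194.1, with AL353194.1 or PANK2 (a kinase of coenzyme A synthesis) as the nearest gene, stood at 0.307%, 1.37%, 0.451% and 0.373%. A weak region at the end of GFRA4 stood at 40.4%, 47.7%, 68.7% and 92.5%.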
